A study of Mus musculus with 147 samples.

Results

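Peritoneal macrophages of mice on high-fat diet with streptozotocin (STZ, a toxin of the insulin-producing beta cells) were set against those of mice on high-fat diet alone. The members are the 9 libraries that the labels name peritoneal macrophages and place in these groups, of 147 libraries in the whole series. The HFD_STZ group held 5 libraries from mice on high-fat diet for 8 weeks that received STZ at week 4, and the HFD group held 4 libraries from mice on the same diet for 8 weeks without STZ. A further 5 libraries of peritoneal macrophages from mice on normal diet (ND) entered the model, because the cohorts span the 3 groups. Strain, sex, age and STZ dose are not stated in the sources used here, and per the series' design text STZ ablated the islets and raised blood glucose. Every one of these peritoneal libraries started from 100000 cells sorted with antibodies for the macrophage type, and polyA RNA was sequenced after Smart-seq2 amplification. Whether each library is 1 animal is not stated, so p-values measure the spread between libraries.

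The resident macrophages of the peritoneal cavity are mostly large cells whose identity depends on the transcription factor Gata6, which is switched on by retinoic acid from the surrounding tissue. They clear bacteria and dead cells, secrete factors such as coagulation factors, and maintain themselves by local division. A smaller population of monocyte-derived macrophages, with higher MHC class II, shares the cavity. Insulin loss by STZ raises glucose, and macrophages also sense nucleotides, lipids and bacterial products through surface receptors.

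Depth was 11.3 to 18.2 M counts in HFD_STZ libraries, 14.1 to 16.7 M in HFD libraries and 14.4 to 19 M in ND libraries. The label markers were present. For them, CPM (read counts scaled to library size) are over each library's total in the 37 libraries of the diet experiment. Prg4, which encodes the lubricant proteoglycan 4, had 4242 to 10080 CPM in the 14 peritoneal libraries. It had at most 3.89 CPM in islet macrophages and 2.62 CPM in microglia. Gata6 had 5.86 to 30.8 CPM in the peritoneal libraries and 0 in both other populations, while Sall1, a microglial factor, was at 0 in the peritoneal libraries. ND 3 stood apart, at 108.8 on the first principal component against -28.4 to 9.63 for the other 13 libraries. Counts of genes called are given with and without it, list medians without it stand beside the leading lists, and ranges of ND libraries are over ND 1, 2, 4 and 5 with ND 3 beside them. HFD_STZ 3 has no HFD library in its cohort, so in the model it is tied to the others through ND 3. On the second component HFD_STZ 3, 4 and 5 lay at 30.9 to 47.2, HFD_STZ 1 at 2.10, HFD_STZ 2 at -8.47 and the HFD libraries at -22.1 to -8.63.

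No gene passed the test in the fit of 14 libraries. By edgeR's quasi-likelihood test with cohort as block and Benjamini-Hochberg adjustment, 0 of 13225 genes (0%) had an adjusted p below 0.05, the smallest adjusted p was 0.0541 (6 genes), and 1069 genes (8.08%) had an unadjusted p below 0.05. On the same 14 libraries DESeq2 called 205 genes and limma voom with library weights 384. Without ND 3 the same test called 20 genes, 12 higher and 8 lower in HFD_STZ libraries, and all 20 were also among those called from the 9 HFD_STZ and HFD libraries alone. That fit of 9 called 239 of 12744 genes (1.88%), 182 higher (1.43%) and 57 lower (0.447%). In it HFD_STZ 3 is alone in its cohort and adds nothing to the contrast, so it rests on the 4 cohorts with both groups. Without HFD_STZ 4 or HFD 4 it called 1 gene, and without HFD_STZ 2 it called 409. Calls are named below with the fit they come from, and "higher" or "lower" without a call describes values only. Changes are log2 fold changes of the fit of 14 libraries, HFD_STZ over HFD, with their standard error.

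The genes of smallest unadjusted p included several receptors and enzymes of the macrophage surface, and the direction was shared by all 4 cohorts for each of the 24 genes picked, of which 23 are described in this and the next paragraphs. These 24 genes were picked by that p, so their separation between groups is not independent of the pick. P2ry6 (mm10 chr7:100937630-100974649, minus strand), a receptor for extracellular UDP, had 13.05, 23.2, 48.8, 40.6 and 60.2 CPM in HFD_STZ 1 to 5, against 5.86, 8.14, 8.63 and 7.01 CPM in HFD 1, 2, 4 and 5. All HFD_STZ libraries lay above all HFD libraries, with HFD_STZ 3, 4 and 5 highest. Its log2 fold change was 2.10 ± 0.33 (edgeR quasi-likelihood test, adjusted p = 0.0541, and 0.028 in the fit of 9 libraries). P2ry14 (mm10 chr3:59113855-59153618, minus strand), the receptor for UDP-glucose, lay on the other side, with 23.03, 15.9, 10.6, 8.51 and 10.7 CPM in HFD_STZ 1 to 5, against 54.5, 36.5, 38.8 and 36.05 CPM in HFD 1, 2, 4 and 5. The groups did not overlap, and the log2 fold change was -1.69 ± 0.27 (edgeR quasi-likelihood test, adjusted p = 0.0541, 0.00769 with 9 libraries and 0.0181 without ND 3). ND libraries had 3.98 to 6.67 CPM (6.8 CPM in ND 3) of P2ry6, like the HFD libraries, and 18.5 to 32.9 CPM (49.3 CPM in ND 3) of P2ry14.

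Cd38, an ectoenzyme that consumes NAD, had 128, 316, 212, 246 and 178 CPM in HFD_STZ 1 to 5, against 49.7, 119.8, 51.1 and 70.8 CPM in HFD 1, 2, 4 and 5, with a narrow gap between HFD_STZ 1 and HFD 2. Its ND libraries had 119.3 to 367 CPM (70.01 CPM in ND 3) and overlapped both groups. Fpr1, the receptor for bacterial formyl peptides, had 146, 140.2, 139, 201 and 97.6 CPM in HFD_STZ 1 to 5, against 30.8, 58.6, 51.4 and 47.2 CPM in HFD 1, 2, 4 and 5. The groups were apart by a log2 fold change of 1.5 ± 0.27 (edgeR quasi-likelihood test, adjusted p = 0.0635, 0.0174 with 9 libraries).

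Aoah, an enzyme that deacylates and so detoxifies bacterial lipopolysaccharide, had 34.9, 34.1, 49.04, 48.2 and 39.6 CPM in HFD_STZ 1 to 5, against 13.6, 22.9, 16.2 and 16.5 CPM in HFD 1, 2, 4 and 5. Trpv4, a calcium-permeable ion channel, had 29.7, 21.4, 36.8, 29.2 and 31.8 CPM in HFD_STZ 1 to 5, against 15.7, 9.81, 12.7 and 17.3 CPM in HFD 1, 2, 4 and 5. Both were separate between the groups and were called in the fit of 9 libraries (adjusted p = 0.0164 for Aoah and 0.011 for Trpv4, edgeR quasi-likelihood test). Clec4a1, a C-type lectin receptor of monocytes and macrophages, had 69.1, 97.3, 139, 147 and 125 CPM in HFD_STZ 1 to 5, against 40.3, 60.5, 67 and 45.5 CPM in HFD 1, 2, 4 and 5. Tgm2, the crosslinking enzyme transglutaminase 2, had 23.9, 14.1, 39.2, 38.6 and 66.3 CPM in HFD_STZ 1 to 5, against 8.02, 8.57, 8.09 and 7.14 CPM in HFD 1, 2, 4 and 5. For Tgm2 the HFD values were nearly equal while the HFD_STZ values differed several-fold among themselves, and it was not called in the fit of 9 libraries (adjusted p = 0.0792, edgeR quasi-likelihood test). Ifi205, an interferon-inducible gene of the p200 family, had 6.001, 9.47, 6.72, 11.8 and 6.49 CPM in HFD_STZ 1 to 5, against 0.741, 3.39, 0.966 and 0.585 CPM in HFD 1, 2, 4 and 5. Its highest HFD value, in HFD 2, lay below the lowest HFD_STZ value.

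Arhgef37 (mm10 chr18:61491657-61536594, minus strand), a putative guanine nucleotide exchange factor, had 17.1, 9.65, 20.3, 11.4 and 9.11 CPM in HFD_STZ 1 to 5, against 3.17, 3.7, 2.35 and 1.69 CPM in HFD 1, 2, 4 and 5. No library of one group reached the range of the other, and its log2 fold change was 2.22 ± 0.33 (edgeR quasi-likelihood test, adjusted p = 0.0541, 0.00769 with 9 libraries and 0.0181 without ND 3). Lhfpl2 (mm10 chr13:94057796-94195409, plus strand), a tetraspan membrane protein gene, was nearly absent from HFD libraries, with 241 reads in 77.8 M over the HFD_STZ libraries against 2 reads in 62 M over the HFD libraries. The ratio of reads per total was 96, with an exact 95% interval of 26.3 to 797. That interval takes reads as independent and leaves out the spread between libraries. It was low in HFD_STZ libraries too, at 1.89, 1.68, 3.51, 1.21 and 5.57 CPM in HFD_STZ 1 to 5, and ND libraries had 0.318 to 0.844 CPM (0 CPM in ND 3). The unannotated transcript I830127L07Rik had 543 reads over the HFD_STZ libraries and 4 reads, all in HFD 5, over the HFD libraries. Itgb5, an integrin beta chain and list member, had 10, 8, 41, 16 and 44 reads in HFD_STZ 1 to 5 and 0 in every HFD library. It was chosen here after its values were seen, so this gap is not independent of the pick. Against a floor of 3 reads over the HFD group, the summed reads per total were 31.6-fold higher. That value leaves out the spread between libraries.

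Among the lower genes, Cd24a, which encodes the glycosylated surface antigen CD24, had 91.4, 86.7, 52.001, 93.7 and 96.6 CPM in HFD_STZ 1 to 5, against 273, 157, 231 and 275 CPM in HFD 1, 2, 4 and 5. Every HFD_STZ library lay below every HFD library, and the ND libraries were higher still, at 293 to 453 CPM (688 CPM in ND 3). The log2 fold change was -1.47 ± 0.26 (edgeR quasi-likelihood test, adjusted p = 0.0635, 0.00456 with 9 libraries and 0.00396 without ND 3). Cd24a is also on the list of dendritic cell markers. Of the 11 tested there, 8 had a negative and 3 a positive log2 fold change (median -0.20). The part of dendritic cells in the Cd24a values was not tested. Cdkn2a, which encodes cell cycle inhibitors, had 1.3, 0.973, 0.351, 1.84 and 0.273 CPM in HFD_STZ 1 to 5, against 7.54, 4.19, 7.42 and 8.12 CPM in HFD 1, 2, 4 and 5. Rprm, a p53 target that can halt the cell cycle, had 0.913, 3.63, 1.504, 0.69 and 0.928 CPM in HFD_STZ 1 to 5, against 10.5, 4.63, 9.42 and 12.5 CPM in HFD 1, 2, 4 and 5. Both were lower in every HFD_STZ library than in any HFD library, and Cdkn2a but not Rprm was called in the fit of 9 libraries (adjusted p = 0.0277 and 0.067, edgeR quasi-likelihood test).

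Parvb, which encodes the focal adhesion adaptor beta-parvin, had 12.4, 15.6, 11.2, 14.1 and 10.4 CPM in HFD_STZ 1 to 5, against 29.3, 28.1, 27.9 and 28.1 CPM in HFD 1, 2, 4 and 5. The HFD libraries varied little and the log2 fold change was -1.16 ± 0.20 (edgeR quasi-likelihood test, adjusted p = 0.0635, 0.0129 with 9 libraries). Tns1, another focal adhesion gene and the opposite in direction, had 39.4, 84.5, 121.4, 107.1 and 141 CPM in HFD_STZ 1 to 5, against 39.3, 45.2, 44.8 and 34.03 CPM in HFD 1, 2, 4 and 5, with HFD_STZ 1 at the HFD level, the other HFD_STZ libraries above it and ND libraries below, at 10.3 to 22.4 CPM (11.9 CPM in ND 3). Pi16, a peptidase inhibitor gene, had 54.99, 71.7, 14.8, 28.2 and 24.3 CPM in HFD_STZ 1 to 5, against 151, 141, 158 and 168 CPM in HFD 1, 2, 4 and 5. Aqp9, a channel for water and glycerol, had 24.5, 21.3, 10.3, 13.1 and 10.5 CPM in HFD_STZ 1 to 5, against 47.6, 37.2, 43.6 and 47.998 CPM in HFD 1, 2, 4 and 5. In both genes HFD_STZ 3, 4 and 5 were lower than HFD_STZ 1 and 2. Vmn2r26, a vomeronasal receptor gene, showed the same order with 96.9, 80.9, 22.1, 46.6 and 24.7 CPM in HFD_STZ 1 to 5, against 229.6, 166, 189.7 and 149.7 CPM in HFD 1, 2, 4 and 5. Mylk3, a myosin light chain kinase gene, had 0 to 0.848 CPM in HFD_STZ libraries against 3.39 to 10.1 CPM in HFD libraries.

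The remaining 3 lower genes were noncoding or predicted loci: Gm30978 (mm10 chr8:25415119-25429224, minus strand), Gm16587 (mm10 chr1:164143432-164146366, minus strand) and Gm32511. Gm30978 had 3.52, 4.69, 2.31, 3.68 and 1.26 CPM in HFD_STZ 1 to 5, against 16.97, 16.96, 19.9 and 25.4 CPM in HFD 1, 2, 4 and 5, and its log2 fold change of -2.79 ± 0.41 was among the 6 at the smallest adjusted p. Gm16587 had 9.39, 8.05, 6.37, 7.02 and 6.6 CPM in HFD_STZ 1 to 5, against 17.4, 16.2, 18.05 and 16.1 CPM in HFD 1, 2, 4 and 5, and it overlaps exons of Selp on the opposite strand. The strand setting of the counting is not stated in the sources used here, so reads of Gm16587 and Selp may not be told apart. Gm32511 had 3.01 to 6.67 CPM in HFD_STZ libraries against 10.3 to 13.8 CPM in HFD libraries. Of the 24 genes, 20 were called in the fit of 9 libraries and 14 in the fit without ND 3.

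**Figure D1:**
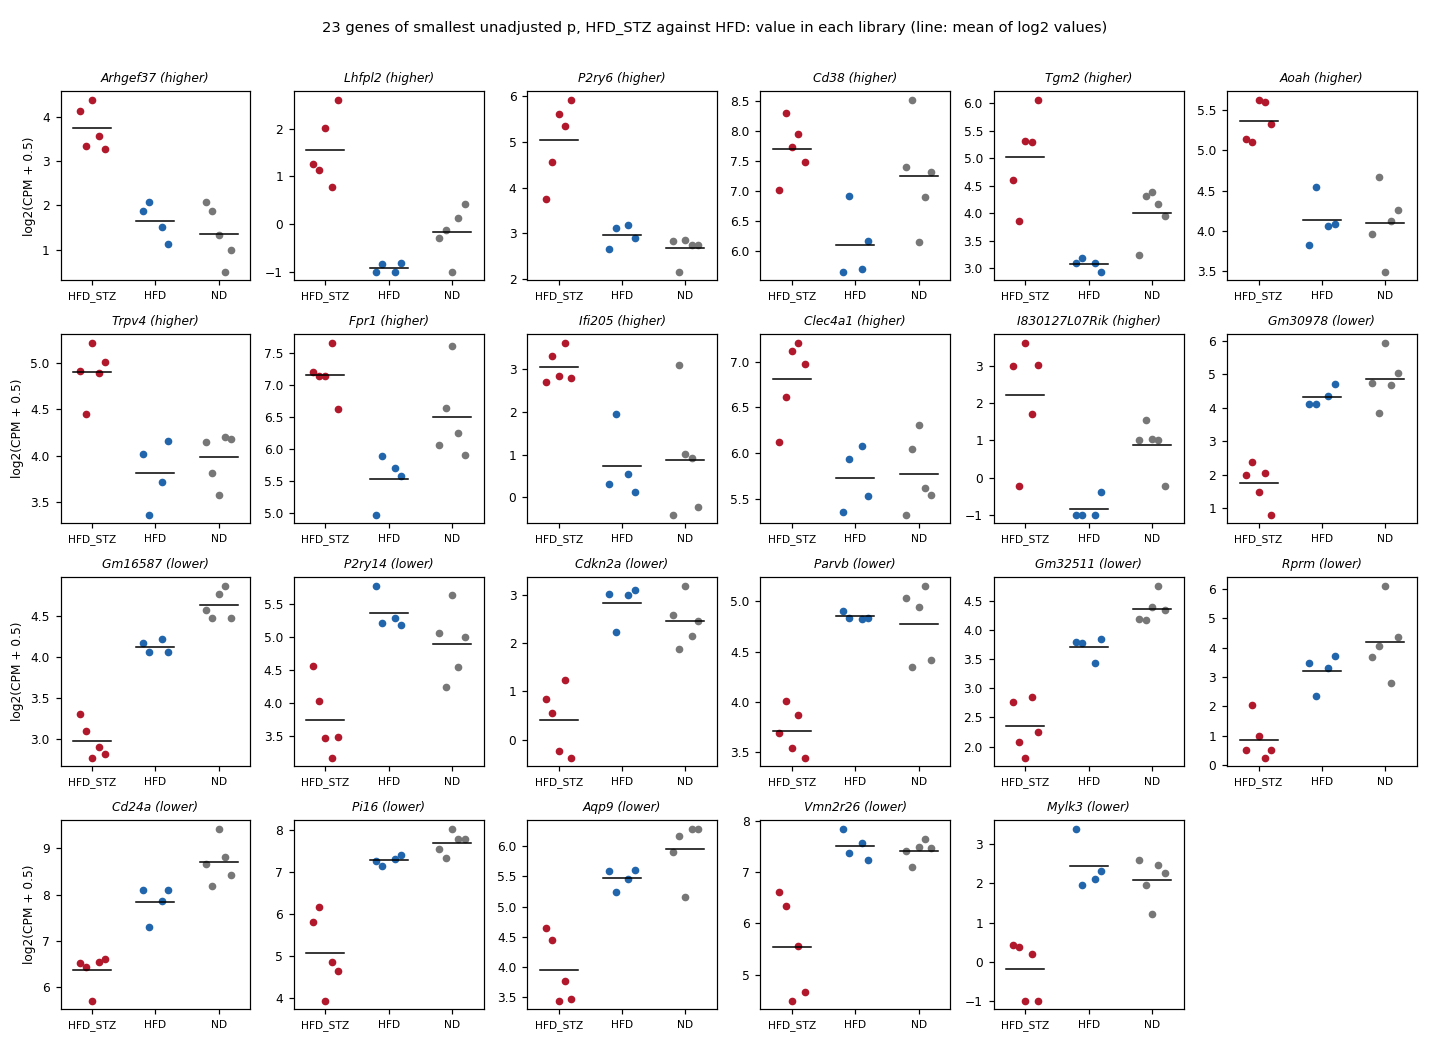
Expression of 23 of the 24 genes of smallest unadjusted p (11 higher, 12 lower in HFD_STZ libraries), each panel with its own y axis of log2(CPM + 0.5), 1 point per library (HFD_STZ 5, HFD 4, ND 5) and a line at the mean of the log2 values. The HFD_STZ and HFD points do not overlap in any panel, and several HFD_STZ groups spread more widely than their HFD groups.

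Genes that define large peritoneal macrophages had lower values in most HFD_STZ libraries. Of 29 members tested, 0 passed the test, 24 had a negative and 5 a positive log2 fold change, and the median was -0.48 (-0.52 without ND 3), against 0.00112 over all genes tested. Within cohorts 1, 2, 4 and 5 the median difference was -0.15, -0.12, -0.56 and -1.21. In 11 members every HFD_STZ library lay below every HFD library, against 2.7% of all genes, and in 1 member, Fcna, every HFD_STZ library lay above. Only Serpinb2 was called in the fit of 9 libraries, against 1.88% of all genes. Prg4 had 7208, 8406, 4258, 6359 and 3793 CPM in HFD_STZ 1 to 5, against 8436, 8701, 10048 and 9253 CPM in HFD 1, 2, 4 and 5 (log2 fold change -0.55 ± 0.23, edgeR quasi-likelihood test, adjusted p = 0.553). Gata6 had 19.96, 16.02, 7.22, 13.1 and 5.24 CPM in HFD_STZ 1 to 5, against 18.4, 24.5, 25.6 and 24.6 CPM in HFD 1, 2, 4 and 5. HFD_STZ 3 and 5 were lowest in both genes, and the groups overlapped for Gata6 because HFD_STZ 1 lay above HFD 1 (log2 fold change -0.96 ± 0.32, edgeR quasi-likelihood test, adjusted p = 0.386).

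The size of the difference varied among the members and among the HFD_STZ libraries. Cxcl13, the chemokine that attracts B cells, had 111.4, 618, 12.6, 105.4 and 7.86 CPM in HFD_STZ 1 to 5, against 636, 832, 978 and 656 CPM in HFD 1, 2, 4 and 5. HFD_STZ 2 was close to the HFD libraries, and HFD_STZ 3 and 5 were far below them. Hdc, the enzyme that makes histamine, had 48.3, 55.2, 3.16, 11.5 and 9.44 CPM in HFD_STZ 1 to 5, against 160.4, 116.5, 111.5 and 136 CPM in HFD 1, 2, 4 and 5. Fabp4, a fatty acid binding protein, had 172, 200.1, 76.1, 169.7 and 35.9 CPM in HFD_STZ 1 to 5, against 345, 351, 389 and 334 CPM in HFD 1, 2, 4 and 5. Mast cells and basophils also express Hdc. The 16 markers of eosinophils, basophils and mast cells summed to 19.4, 134, 1.71, 4.37 and 1.64 CPM in HFD_STZ 1 to 5, against 23.2, 110, 6.04 and 64.9 CPM in HFD 1, 2, 4 and 5. Of the 7 tested, 0 had a positive log2 fold change (median -1.1). Of the 16, Prg2, Prg3, Ear6 and Mcpt8 were at 0 in all 9 libraries. Their part in the Hdc values was not tested. Tgfb2, a ligand of the TGF-beta family, had 309, 616, 105.7, 187 and 117.5 CPM in HFD_STZ 1 to 5, against 575, 569, 661 and 588 CPM in HFD 1, 2, 4 and 5, again with HFD_STZ 2 at the HFD level. Timd4, a receptor for the phosphatidylserine of dead cells, had 123.6, 299, 81.2, 150.4 and 61.8 CPM in HFD_STZ 1 to 5, against 218, 307, 226 and 215 CPM in HFD 1, 2, 4 and 5. The coagulation factor gene F10 had 283 to 676 CPM in HFD_STZ libraries against 726 to 781 CPM in HFD libraries, and Selp, which encodes P-selectin, had 423 to 1137 CPM against 1177 to 1295 CPM. These members were chosen after their values were seen.

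Of the 4 list members with the highest CPM per exon kilobase, Alox15, a lipoxygenase, had 12942, 11175, 6412, 7659.8 and 4161 CPM in HFD_STZ 1 to 5, against 9566, 10368, 8869 and 9055 CPM in HFD 1, 2, 4 and 5, so the HFD_STZ libraries lay on both sides of the HFD range. Laptm5, a lysosomal membrane protein gene, had 3939 to 5137 CPM in HFD_STZ libraries against 5370.2 to 6229.9 CPM in HFD libraries, a log2 fold change of -0.37 ± 0.19. Adgre1, which encodes the macrophage marker F4/80, had 1391 to 3353 CPM against 3232 to 3797 CPM (-0.39 ± 0.31). Prg4 was the fourth. Fcna, which encodes the lectin ficolin A, was the exception in direction, with 739, 841, 1351, 1819 and 1276 CPM in HFD_STZ 1 to 5, against 441, 674, 477 and 670.3 CPM in HFD 1, 2, 4 and 5. In these sorted pools, fewer cells with a given program and less RNA of it per cell cannot be told apart.

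**Figure D2:**
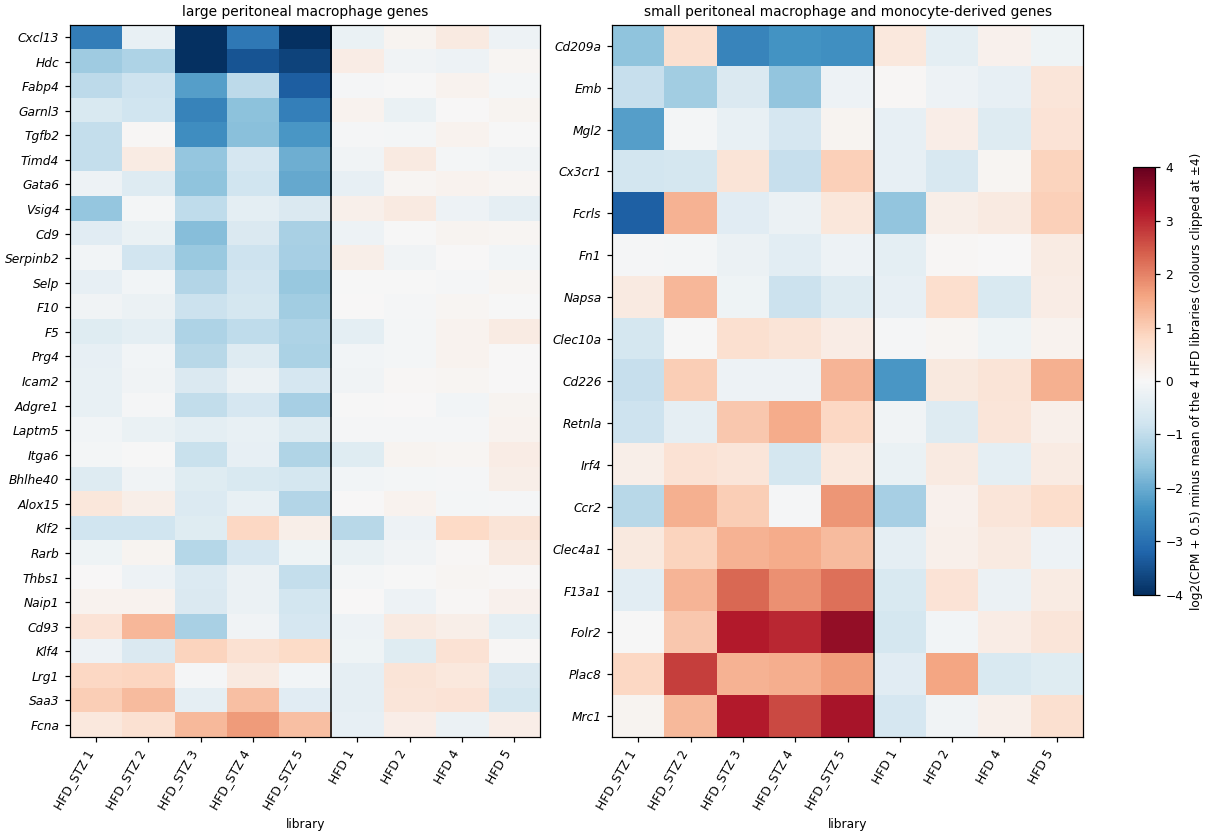
Heat map of 2 gene lists (rows, 1 small peritoneal macrophage gene not shown, ordered by fitted log2 fold change) over the 5 HFD_STZ and 4 HFD libraries (columns), coloured by log2(CPM + 0.5) minus the mean of the HFD libraries and clipped at ±4. Most large peritoneal macrophage genes are bluest in HFD_STZ 3, 4 and 5, where F13a1, Folr2 and Mrc1 are reddest, while HFD_STZ 1 and 2 are paler.

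Small peritoneal macrophage and monocyte-derived genes did not share 1 direction. Of 18 members tested, 11 had a positive and 7 a negative log2 fold change, with a median of 0.28 (0.15 without ND 3), and 0 passed the test. In the fit of 9 libraries Clec4a1 and Plac8 were called higher and Emb lower, against 1.43% and 0.447% of all genes. Without HFD_STZ 4, or without HFD 4, neither was called higher there. Mrc1, the mannose receptor, had 42.99, 99.4, 363, 250.1 and 392 CPM in HFD_STZ 1 to 5, against 24.6, 35.8, 46.2 and 61.7 CPM in HFD 1, 2, 4 and 5 (log2 fold change 2.25 ± 0.53, edgeR quasi-likelihood test, adjusted p = 0.172). Folr2, the folate receptor beta of resident tissue macrophages, had 7.89, 17.3, 75.02, 68.1 and 95.5 CPM in HFD_STZ 1 to 5, against 4.72, 7.34, 9.96 and 11.3 CPM in HFD 1, 2, 4 and 5. F13a1, the A chain of coagulation factor XIII, had 170.0, 589, 1131, 813 and 1068 CPM in HFD_STZ 1 to 5, against 150.0, 335, 194 and 287 CPM in HFD 1, 2, 4 and 5. In all 3 genes HFD_STZ 2, 3, 4 and 5 were above every HFD library and HFD_STZ 1 was within their range. These genes were chosen after their values were seen. Lyve1, of the endothelial list, is the hyaluronan receptor found on lymphatic endothelium and on some tissue macrophages. It had 10.4, 63.5, 441, 346 and 606 CPM in HFD_STZ 1 to 5, against 21.8, 36.3, 25.4 and 45.98 CPM in HFD 1, 2, 4 and 5, with HFD_STZ 1 below every HFD library.

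Other members of that list were flat or mixed. Fn1, which encodes fibronectin, had 16312 to 20788 CPM in HFD_STZ libraries against 16554 to 26921 CPM in HFD libraries (log2 fold change -0.04). Retnla, a secreted marker of alternative activation, had 1032, 1441, 3872, 5119 and 3241 CPM in HFD_STZ 1 to 5, against 1658, 1284, 2553 and 2097 CPM in HFD 1, 2, 4 and 5, with HFD_STZ 3, 4 and 5 above all HFD libraries and HFD_STZ 1 below them. Ccr2, the chemokine receptor of monocytes, had 15.9 to 119.01 CPM against 13.5 to 56.2 CPM, with HFD_STZ 2, 3 and 5 above every HFD library and HFD_STZ 1 and 4 within their range. Emb, a cell adhesion protein gene, had 31.5, 22.9, 40.5, 19.96 and 52.3 CPM in HFD_STZ 1 to 5, against 63.4, 52.97, 47.9 and 84.3 CPM in HFD 1, 2, 4 and 5. The summed level of 10 endothelial markers was 12.5 to 607.7 CPM in HFD_STZ libraries and 23.5 to 47.8 CPM in HFD libraries, and nearly all of it was Lyve1. The defining endothelial markers Cdh5 and Kdr had 7 and 5 reads over all 9 libraries, Cldn5 had 0, and Pecam1 reached 10.7 CPM in HFD_STZ and 2.64 CPM in HFD libraries.

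Receptors and ligands for the clearance of dead cells differed in direction from one another. Of 22 members tested, 15 had a positive and 7 a negative log2 fold change (median 0.18), and 0 passed the test. In the fit of 9 libraries Axl, Itgb5 and Cd36 were called higher, against 1.43% of all genes. Without HFD_STZ 4 or HFD 4 no member was called higher there. Gas6, the bridging ligand that links phosphatidylserine to the receptors Axl, Mertk and Tyro3, had 10.5, 20.9, 90.3, 55.3 and 93.1 CPM in HFD_STZ 1 to 5, against 6.53, 5.49, 7.12 and 7.6 CPM in HFD 1, 2, 4 and 5 (log2 fold change 2.70 ± 0.53, edgeR quasi-likelihood test, adjusted p = 0.0958, and 0.137 with 9 libraries). Axl had 37.3, 31.8, 143, 70.8 and 95.1 CPM in HFD_STZ 1 to 5, against 5.19, 10.4, 14.4 and 15.1 CPM in HFD 1, 2, 4 and 5 (log2 fold change 2.77 ± 0.69, adjusted p = 0.197 and 0.00456 with 9 libraries). Mertk had 156, 180.4, 188, 161 and 167 CPM in HFD_STZ 1 to 5, against 142, 120.9, 111.5 and 117.4 CPM in HFD 1, 2, 4 and 5. Gas6, Axl and Mertk had no overlap between the groups, while Tyro3, the third receptor of this family, was too low to be tested in the fit of 14, though ND libraries had 21.3 to 65.5 CPM (3.35 CPM in ND 3) of Axl. On the other side were Timd4, the bridging protein gene Mfge8, with 40.9 to 105.8 CPM against 112.7 to 122.3 CPM, and Itgb3, an integrin beta chain, with 4.91 to 29.7 CPM against 32.4 to 38.7 CPM. The C1q genes, which had the highest CPM per exon kilobase of the list, had log2 fold changes of 0.12 (C1qa), 0.04 (C1qb) and -0.0024 (C1qc).

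Cell cycle genes had higher values in HFD_STZ libraries in nearly all members and in every cohort. Of 40 members tested, 35 had a positive log2 fold change, the median was 0.77 (0.76 without ND 3), and 0 passed the test in the fit of 14 libraries, while the fit of 9 libraries called 21 higher and 0 lower, against 1.43% of all genes called higher. That count was 0 without HFD_STZ 4 or HFD 4, 3 without HFD_STZ 1, 4 without HFD 1, 7 without HFD_STZ 5 or HFD 5, and 28 without HFD_STZ 2 or HFD 2. In 12 members every HFD_STZ library lay above every HFD library, against 3.15% of all genes, and in 1 member, Ccnd1, every one lay below. The median within-cohort difference over the list was 0.67, 0.24, 0.98 and 0.84 on the log2 scale in cohorts 1, 2, 4 and 5.

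The members span DNA replication, mitosis and their regulators. Top2a, which untangles DNA for mitosis, had 151, 131, 149.9, 148 and 239 CPM in HFD_STZ 1 to 5, against 83.6, 86.7, 67.1 and 125 CPM in HFD 1, 2, 4 and 5 (log2 fold change 0.95 ± 0.28, edgeR quasi-likelihood test, adjusted p = 0.271, and 0.00769 with 9 libraries). Mki67, a marker of cycling cells, had 70.7, 56.2, 93.3, 87.6 and 166 CPM in HFD_STZ 1 to 5, against 37.5, 52.5, 37.8 and 70.4 CPM in HFD 1, 2, 4 and 5. The replication helicase gene Mcm6 had 219, 159, 205, 197 and 223 CPM in HFD_STZ 1 to 5, against 128, 130.4, 113.1 and 145 CPM in HFD 1, 2, 4 and 5. HFD_STZ 5 was highest in all 3 genes, and for Mki67 it was HFD 5 that overlapped the HFD_STZ range. Ccna2, a cyclin of S phase and mitosis, had 55.1 to 139 CPM in HFD_STZ libraries against 28.7 to 63.3 CPM in HFD libraries, and Rrm2, which makes deoxynucleotides, had 55.7 to 117.2 CPM against 33.7 to 55.8 CPM. Of the members with the highest CPM per exon kilobase, Cdk4 and Pcna had log2 fold changes of -0.02 and 0.19. Ccnd1, the cyclin D1 gene of early G1, had 253, 153, 169.6, 183 and 123.98 CPM in HFD_STZ 1 to 5, against 282, 296, 261 and 267 CPM in HFD 1, 2, 4 and 5, opposite to the replication and mitosis genes. In ND libraries Top2a had 53.8 to 120.5 CPM (54.6 CPM in ND 3), below every HFD_STZ library. Only 2 of the 40 members had every ND library below every HFD_STZ library. The summed level of the list was 3295, 2444, 3289, 3058 and 4031 CPM in HFD_STZ 1 to 5. It was 2429, 2334, 1983 and 2661 CPM in HFD 1, 2, 4 and 5, and 3298, 2471, 2891, 2183 and 1746 CPM in ND 1 to 5. By that sum ND 1 was above 4 of the 5 HFD_STZ libraries, so the ND libraries overlapped both groups.

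**Figure D3:**
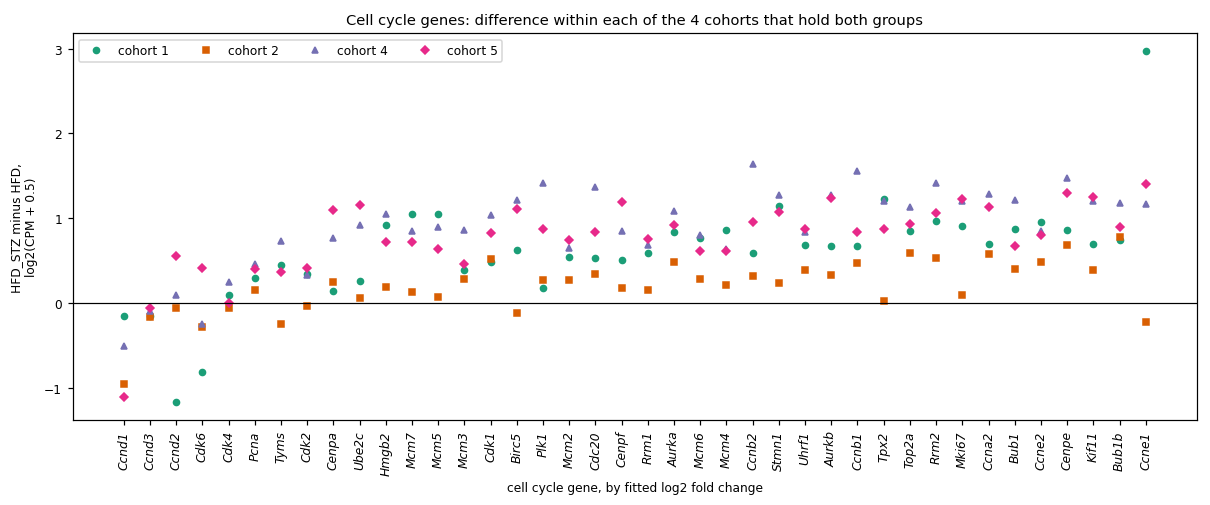
Difference between the HFD_STZ and the HFD library of each cohort (cohorts 1, 2, 4 and 5, 1 marker each) in log2(CPM + 0.5) for the 40 cell cycle genes, ordered along the x axis by fitted log2 fold change. Most points lie above 0, cohort 2 lies closest to 0, and Ccnd1 at the left is below 0 in all 4 cohorts.

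The promoters of 3 mitotic members are shown because mitotic genes are known to be driven together through CCAAT boxes and through the cell cycle homology region (CHR). They do not stand for the replication genes of the list. Each sequence is the RefSeq window of 250 bases before to 50 bases after the start, 5′ to 3′ on the gene's strand, with CCAAT and TTTGAA in capitals, each in either orientation (ATTGG and TTCAAA):
Top2a (GRCm38.p6 chr11:99024140-99024439, minus strand): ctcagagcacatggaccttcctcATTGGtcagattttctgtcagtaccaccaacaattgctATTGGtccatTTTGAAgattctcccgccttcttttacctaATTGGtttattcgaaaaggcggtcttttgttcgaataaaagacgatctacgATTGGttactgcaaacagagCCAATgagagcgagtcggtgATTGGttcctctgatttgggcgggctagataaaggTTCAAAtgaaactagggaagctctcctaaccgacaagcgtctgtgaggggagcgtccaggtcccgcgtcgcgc
Cdk1 (GRCm38.p6 chr10:69352863-69353162, minus strand): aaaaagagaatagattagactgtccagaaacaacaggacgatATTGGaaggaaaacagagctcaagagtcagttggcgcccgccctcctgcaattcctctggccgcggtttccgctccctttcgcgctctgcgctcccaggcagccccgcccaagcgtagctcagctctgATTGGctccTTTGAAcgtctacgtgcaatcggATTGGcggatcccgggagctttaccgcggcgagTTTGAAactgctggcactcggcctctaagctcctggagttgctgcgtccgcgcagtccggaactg
Ccnb2 (GRCm38.p6 chr9:70421505-70421804, minus strand): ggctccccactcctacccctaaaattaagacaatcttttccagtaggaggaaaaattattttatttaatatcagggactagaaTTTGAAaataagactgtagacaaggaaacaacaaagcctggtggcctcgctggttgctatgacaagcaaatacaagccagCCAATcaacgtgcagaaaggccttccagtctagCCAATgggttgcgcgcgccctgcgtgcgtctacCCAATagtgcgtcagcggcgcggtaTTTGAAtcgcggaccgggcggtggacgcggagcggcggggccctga

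The Top2a window held 6 CCAAT and 2 TTTGAA matches, and the Cdk1 and Ccnb2 windows held 3 and 2 each. Windows were found for 32 of the 40 members (35 windows). CCAAT was in 29 of the 35 (82.9%), against 37.4% of all 32851 windows, and TTTGAA was in 14 (40%), against 17.9%. These matches describe letters and not binding. For large peritoneal macrophage genes, 19 of 29 members had a window, and AGATAA, the core read by GATA factors, was in 3 of their 21 windows (14.3%), against 11.2% of all windows.

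Interferon-stimulated genes had higher values in most members, and inflammatory cytokine genes did not share 1 direction. Of 38 interferon-stimulated genes tested, 34 had a positive log2 fold change, with a median of 0.51 (0.41 without ND 3), and 0 passed the test. Within cohorts 1, 2, 4 and 5 the median difference was 0.45, 0.21, 0.35 and 0.59. In the fit of 9 libraries 7 were called higher, against 1.43% of all genes. That count was 0 without either library of cohort 1 or of cohort 4. Ifit2, an interferon-induced inhibitor of translation, had 1.7, 5.04, 7.87, 2.36 and 3.98 CPM in HFD_STZ 1 to 5, against 0.674, 0.555, 0.785 and 1.1 CPM in HFD 1, 2, 4 and 5. Ifi44 had 5.67, 13.4, 13.04, 14.6 and 9.17 CPM in HFD_STZ 1 to 5, against 1.01, 3.33, 6.64 and 2.27 CPM in HFD 1, 2, 4 and 5. Both were low, and ND libraries had 0.445 to 20.03 CPM (0.192 CPM in ND 3) of Ifit2, with ND 2 above all HFD_STZ libraries. The most abundant members per kilobase, Bst2, Gbp3, Rtp4 and Oas1a, had log2 fold changes of -0.08, 0.07, 0.51 and 0.23. Of 29 genes of NF-kB cytokines and feedback, 17 had a positive log2 fold change (median 0.04, and -0.02 without ND 3) and 0 were called in either fit. Tnf had 0.652 to 2.61 CPM in HFD_STZ libraries against 1.75 to 2.49 CPM in HFD libraries, and Il1b had 0.115 to 1.24 CPM against 0.185 to 1.15 CPM. Among 21 Toll-like receptor genes, Tlr4 and Tlr8 were called higher in the fit of 9 libraries, against 1.43% of all genes. Without HFD_STZ 4 or HFD 4 neither was called higher there. Tlr4 had 115.6 to 151 CPM in HFD_STZ libraries against 83.2 to 103.6 CPM in HFD libraries, and Tlr8 had 77.9 to 98.5 CPM against 51.8 to 58.6 CPM.

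MHC class II genes, which present antigen to T cells, had higher values in most members. Of 10 members tested, 7 had a positive log2 fold change (median 0.41) and 0 were called in either fit. Cd74, the invariant chain, had 428, 1188, 1034, 786 and 560.2 CPM in HFD_STZ 1 to 5, against 116.6, 519, 471 and 536 CPM in HFD 1, 2, 4 and 5. The value was highest in HFD_STZ 2, and the 18 B cell and plasma cell markers also summed highest there, at 600.0 CPM, against 8.95 to 67.2 CPM in the other HFD_STZ libraries, 368 CPM in HFD 2 and 26.5 to 91 CPM in the other HFD libraries. Their part in these values was not tested. B cell markers themselves had a median log2 fold change of -0.76, with 2 of 17 positive.

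Some genes that respond to fatty acids and sterols had higher values in HFD_STZ libraries, and most SREBP2 targets, genes of cholesterol synthesis and uptake, had lower ones. Of 28 genes of fatty acid oxidation and PPAR targets, 17 had a positive log2 fold change (median 0.02, and 0.07 without ND 3). Pdk4, Angptl4 and Plin2 were called higher in the fit of 9 libraries, against 1.43% of all genes. Without HFD_STZ 4 or HFD 4 no member of this list was called higher there. Pdk4, the kinase that shuts pyruvate out of mitochondria, had 13.1, 4.96, 6.07, 10.7 and 3.001 CPM in HFD_STZ 1 to 5, against 2.69, 0.987, 2.11 and 0.455 CPM in HFD 1, 2, 4 and 5. Angptl4, a secreted inhibitor of lipoprotein lipase, had 5.02, 7.88, 8.68, 18.2 and 9.6 CPM in HFD_STZ 1 to 5, against 2.9, 1.23, 2.78 and 2.14 CPM in HFD 1, 2, 4 and 5. Neither gene overlapped between the groups, and both were low. Of 12 LXR targets, 9 had a positive log2 fold change (median 0.32, and 0.16 without ND 3). Apoe and Abca1 were called higher in the fit of 9, against 1.43% of all genes. Without either library of cohort 2 or of cohort 4 no member was called higher there. The list, with Apoe its largest member, summed to 8773 to 19060 CPM in HFD_STZ and 7126 to 8979 CPM in HFD libraries. It summed to 5951 CPM in ND 1, below every HFD library. ND 2, 4 and 5, at 10490 to 15730 CPM (21840 CPM in ND 3), lay within the HFD_STZ range. Apoe, the lipid carrier of cholesterol efflux, had 12974, 18357, 9738, 14412 and 7979 CPM in HFD_STZ 1 to 5, against 6518, 6918, 8356 and 6773 CPM in HFD 1, 2, 4 and 5. Abca1, the sterol exporter, had 166 to 282 CPM against 112.1 to 177 CPM. Lpcat3 and Nr1h2, also among the members of highest CPM per exon kilobase, had negative log2 fold changes of -0.45 and -0.21. On the uptake and synthesis side, 19 of 25 SREBP2 targets had a negative log2 fold change (median -0.34). In the fit of 14 libraries 0 passed the test, and 1 was called lower in the fit of 9, against 0.447% of all genes. Mvd, an enzyme of the mevalonate pathway, had 28.1 to 43.6 CPM in HFD_STZ libraries against 38.3 to 52.6 CPM in HFD libraries, with the groups overlapping. Ebp, a sterol isomerase gene, had a log2 fold change of -0.07 ± 0.19. The oxidation enzymes themselves, such as Acadl (0.02) and Acaa2 (0.10), had log2 fold changes near 0.

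Genes of glucose and insulin handling mostly differed little. Of 30 genes of glucose uptake and glycolysis, 14 had a positive log2 fold change (median -0.02). Pdk4, described above, was the 1 member called higher in the fit of 9, against 1.43% of all genes. Ldha, Eno1, Aldoa and Gapdh, the highest per exon kilobase, had log2 fold changes of -0.06, 0.06, -0.25 and -0.18. Txnip, which glucose induces in many cell types, had 559, 662, 558, 621 and 503 CPM in HFD_STZ 1 to 5, against 615, 536, 546 and 543 CPM in HFD 1, 2, 4 and 5, with the groups overlapping. Among hexosamine genes Gfpt2, the first enzyme of that pathway, had 14.02, 6.46, 2.26, 4.83 and 2.62 CPM in HFD_STZ 1 to 5, against 36.8, 20.9, 25.2 and 25.7 CPM in HFD 1, 2, 4 and 5 (log2 fold change -1.99 ± 0.40, edgeR quasi-likelihood test, adjusted p = 0.0958, and 0.0164 with 9 libraries). All HFD_STZ libraries were below all HFD libraries. Of 29 genes of insulin and IGF signalling, 23 had a positive log2 fold change (median 0.15). Igfbp4 and Pik3cd were called higher in the fit of 9, against 1.43% of all genes. Without either library of cohort 1 or of cohort 4 neither was called higher there. Igfbp4, a secreted binding protein of insulin-like growth factors, had 139, 117.2, 208, 237 and 236 CPM in HFD_STZ 1 to 5, against 70.7, 74.4, 74.9 and 91.1 CPM in HFD 1, 2, 4 and 5. The insulin receptor gene Insr had 65.7, 59.4, 67.5, 69.4 and 59.2 CPM in HFD_STZ 1 to 5, against 89.2, 87.5, 84.3 and 70.9 CPM in HFD 1, 2, 4 and 5, opposite in direction and without overlap. Insr was not called (edgeR quasi-likelihood test, adjusted p = 0.531, and 0.0659 with 9 libraries).

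**Figure D4:**
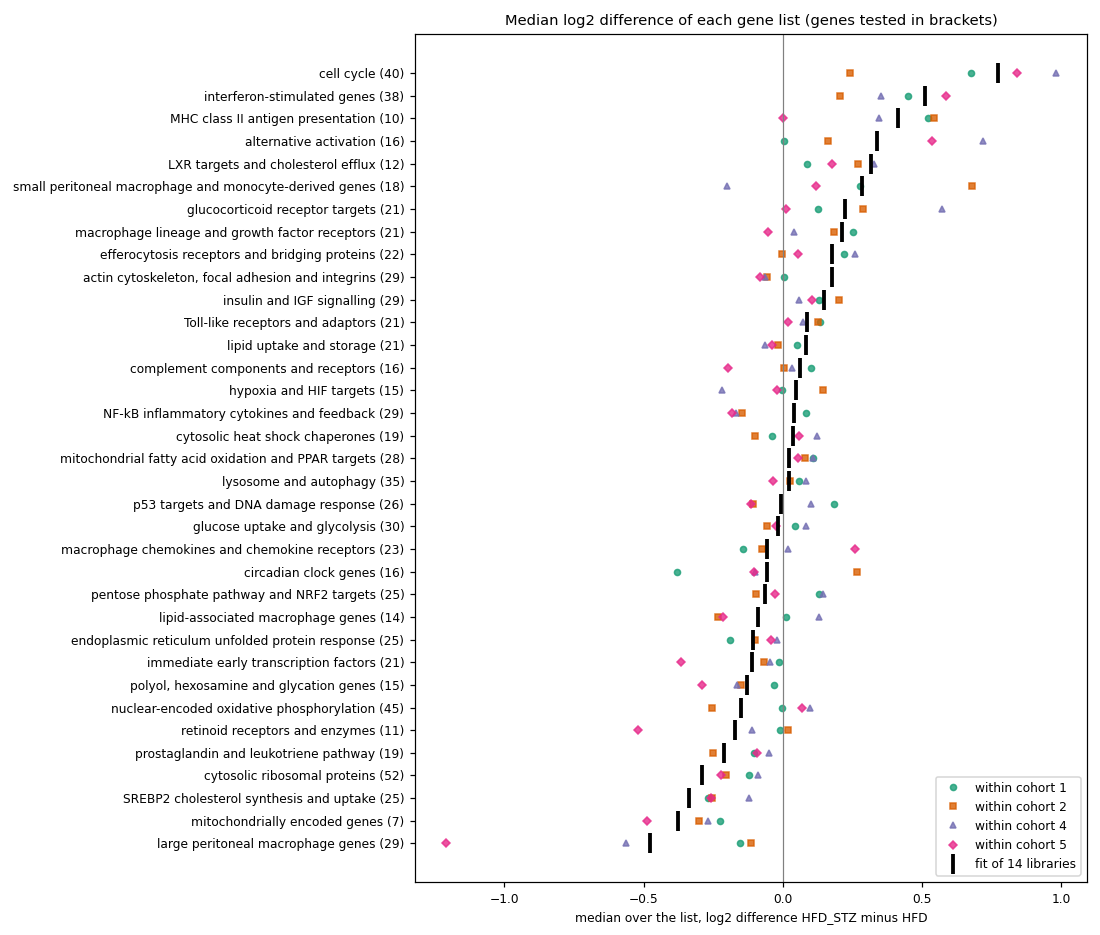
Median log2 difference between HFD_STZ and HFD libraries for 35 gene lists (rows, with the number of genes tested), as fitted over 14 libraries (black bar) and within cohorts 1, 2, 4 and 5 (coloured markers). Cell cycle and interferon-stimulated genes are positive in every cohort and large peritoneal macrophage genes negative in every cohort, most so in cohort 5, while most other lists lie near 0.

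The STZ effect was also set against that in the 2 other populations of the diet experiment, in a joint fit of 37 libraries with 17230 genes. The effect differed between peritoneal and islet macrophages for 189 genes (1.1%), 176 of them with the more positive log2 fold change in peritoneal macrophages. It differed between peritoneal macrophages and microglia for 2 genes (0.0116%), Lhfpl2 and Itgb5. In islet macrophages the effect itself was called for 463 genes, so a difference can come from the islet side. A positive difference can be a fall there, as for Itgb3, at 0 CPM in HFD_STZ and 2.17 CPM in HFD islet libraries. Per the labels, islet and microglia libraries started from far fewer cells than these peritoneal libraries, and islet HFD_STZ held 3 libraries. Population and number of starting cells thus cannot be told apart. Lhfpl2 differed from islet macrophages by 5.45 and from microglia by 6.22 on the log2 scale (edgeR quasi-likelihood test of the interaction, adjusted p = 0.000298 and 0.000187), fitted values that depend on the prior count because HFD libraries held almost no reads. P2ry6 had effects of 2.11 in peritoneal macrophages, -0.37 in islet macrophages and 0.04 in microglia, and differed from islet macrophages (difference 2.48, edgeR quasi-likelihood test, adjusted p = 0.00504) but was not called against microglia (adjusted p = 0.213). The other 22 of the 24 genes were not called in either test of the difference.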

How the data were processed

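The authors deposited unnormalised read counts for each gene in each library. Per the submitters' processing notes, the authors used Trimmomatic 0.36, STAR 2.5.1a, featureCounts and the mm10 assembly. Neither the annotation release nor the strand setting is given in the sources used here. Of 50686 gene identifiers, 50462 matched a GENCODE M21 symbol of the same assembly, and positions are from that annotation. Counts without a symbol were at most 0.00684% of a library.

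The 14 peritoneal libraries of the diet experiment were fitted with edgeR 4.0.16 (R 4.3.3): filterByExpr, TMM scaling, robust quasi-likelihood test, group plus cohort. The labels give the replicate number as the cohort, so it is a block. Within-group residuals of the same cohort correlated at 0.16 to 0.358 in 4 of 4 HFD_STZ and HFD pairs, against a mean of -0.0656 in 16 pairs of different cohorts. Same-cohort pairs with an ND library were less uniform, from -0.0922 (HFD_STZ 4 and ND 4) to 0.332 (HFD 1 and ND 1). HFD_STZ 3 and ND 3 correlated at -0.0835, while HFD_STZ 4 and ND 3, of different cohorts, correlated at 0.292. Calls are Benjamini-Hochberg adjusted p-values below 0.05, over all genes tested. CPM are relative to the filtered, TMM-scaled library size, given as mean ± SD or per library. Within-cohort differences use log2(CPM + 0.5). Populations were compared in 1 joint fit of 37 libraries with cohort within population. Ranges of label markers over the populations and single markers of other cells are CPM of the library total.

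The members and gene lists were chosen with earlier results of these data known. As 0 genes were called, named genes are the 12 of smallest unadjusted p in each direction with a mean of at least 1 CPM in 1 group, Prg4, Gata6, Tns1 and Cd24a, and each list's 4 members of highest CPM per exon kilobase. Not every one of these list members is described. Other list members were chosen after their values were seen. In simulated counts with 100 genes changed by 1 and 100 by 2 on the log2 scale among 12884, the edgeR fit recovered 81% and 100% and called 6 unchanged genes. On the same simulated counts DESeq2 called 24 unchanged genes and voom 5. In the fit of the 14 libraries, genes with fitted changes above 2 in size were not called. They included Arhgef37 (2.22, adjusted p = 0.0541) and Rprm (-3.1, adjusted p = 0.0635, edgeR quasi-likelihood test for both). The simulated recovery thus does not carry over to these libraries, and 0 calls do not show that no gene differed. Alternatives used DESeq2 1.42.0 and limma 3.58.1. Among 91 pairs of the 14 libraries, 0 held identical counts. Reads had no molecular identifiers, so amplified copies of 1 molecule count as separate reads. Any interval here takes reads as independent and leaves out the spread between libraries, so it may be too narrow. The refeeding experiment was not used here, and the values of 2 genes are not reported here.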

Additional observations from a re-analysis of the deposited data

Results flagged for a closer look

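Among the 24 genes of smallest unadjusted p, Prg4, Gata6 and Tns1, in 9 of 54 groups of 4 or 5 libraries 1 library was marked by Dixon's criterion, which by chance marks about 5% of groups. The criterion sets the gap to the next library against the range of the group. A marked library can thus be close to the rest in CPM, as for Parvb. In HFD_STZ libraries, Rprm was high in HFD_STZ 2 (3.63 CPM, next 1.5 CPM) and Cd24a was low in HFD_STZ 3 (52 CPM, next 86.7 CPM). In HFD libraries, HFD 1 was high for P2ry14 (54.5 CPM, next 38.8 CPM), Parvb (29.3 CPM, next 28.1 CPM) and Mylk3 (10.1 CPM, next 4.48 CPM) and low for Gata6 (18.4 CPM, next 24.5 CPM). HFD 2 was high for Ifi205 (3.39 CPM, next 0.966 CPM), HFD 4 was low for Gm32511 (10.3 CPM, next 13.3 CPM), and HFD 5 was the only HFD library with reads of I830127L07Rik (0.26 CPM).

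Differences in the STZ effect between populations were tested and passed for 2 of these genes. On the log2 scale Lhfpl2 differed by 5.45 between peritoneal and islet macrophages (edgeR quasi-likelihood test of the interaction, adjusted p = 0.000298) and by 6.22 between peritoneal macrophages and microglia (adjusted p = 0.000187), and P2ry6 differed by 2.48 between peritoneal and islet macrophages (adjusted p = 0.00504). Among the list members of highest CPM per exon kilobase, the difference from islet macrophages also passed for Ctsd, a lysosomal protease gene (-1.72, adjusted p = 0.00282), Mlxipl, a glucose-responsive transcription factor gene (-4.67, adjusted p = 0.0101) and Igfbp4 (3.43, adjusted p = 0.0386), by the same edgeR quasi-likelihood test. For Ctsd and Mlxipl the effect in islet macrophages was itself called (1.72 and 4.43). On the joint scaling, islet macrophages had 1.79 ± 2.94 CPM of Mlxipl in HFD_STZ and 1.42 ± 2.79 CPM in HFD libraries (mean ± SD). The fitted values of Mlxipl thus rest on low and uneven counts in islet macrophages. Of the other genes given above, Gas6, Itgb3, Itgb5 and Pik3cd passed it as well (6.67, 8.6, 7.26 and 1.8). The islet effect was itself called for Itgb3 (-9.93) and Pik3cd (-1.3), but not for Gas6 (-3.94) or Itgb5 (0.48). For Itgb3 the peritoneal effect was negative (-1.33), and islet macrophages had 0 CPM in HFD_STZ and 2.17 ± 1.95 CPM in HFD libraries. Gas6 was also low there, at 2.44 ± 4.22 and 6.94 ± 6.74 CPM.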

How the results depend on the processing

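The count of genes called depended on the fit, and the cause was not tested. Against 0 genes in the edgeR fit of 14 libraries with the replicate block, edgeR called 34 without the block, 239 in the 9 HFD_STZ and HFD libraries, 247 in the 8 libraries of the 4 cohorts with both groups, 8 with DESeq2 size factors, 166 without the expression filter and 20 without ND replicate 3. DESeq2 called 205 genes and limma voom with library weights 384. Leaving out each HFD_STZ or HFD replicate gave 0 to 64 genes (64 without HFD_STZ replicate 2, 26 without HFD_STZ replicate 3), and in the fit of 9 libraries 1 to 409. The difference from islet macrophages (189 genes) was called for 29 genes by voom, 180 without ND replicate 3, and for 96 to 173 without 1 replicate. The difference from microglia (2 genes) was called for 5 genes without the replicate block, 11 without the filter, 7 by voom, 1 without ND replicate 3, and 1 to 4 without 1 replicate. Leaving out ND 3, and leaving libraries out of the fit of 9, were chosen after seeing the data. Over 458 recomputed log2 fold changes of named genes, 0 changed direction, 264 kept their side of the threshold and 194 newly passed it. Of 672 recomputed list medians, 608 moved by less than the SD of the within-cohort medians. The median of all genes was at most 0.016 from 0 in every fit of the HFD_STZ and HFD contrast. Low genes such as Lhfpl2 and Itgb5 rest on few reads in HFD libraries.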

Other observations

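Genes linked to alternative activation had positive log2 fold changes in 13 of 16 members tested (median 0.34), and 0 were called in the fit of 14 or of 9 libraries. Arg1, which breaks down arginine, had 460.1, 167, 491, 764 and 839 CPM in HFD_STZ 1 to 5, against 199, 193, 156 and 226 CPM in HFD 1, 2, 4 and 5, with HFD_STZ 2 inside the HFD range and ND libraries at 316 to 1009 CPM (896 CPM in ND 3). Chil3, a chitinase-like secreted protein, had 163, 219.6, 124.7, 49.6 and 43.2 CPM in HFD_STZ 1 to 5, against 17.98, 61.9, 15.8 and 24.3 CPM in HFD 1, 2, 4 and 5, with HFD_STZ 1, 2 and 3 highest. Cd163, the scavenger receptor for haemoglobin that glucocorticoids induce, had 65.7, 73.6, 159, 122.5 and 145 CPM in HFD_STZ 1 to 5, against 62.5, 41.9, 51.7 and 62.9 CPM in HFD 1, 2, 4 and 5, so the groups did not overlap. Of 21 glucocorticoid receptor targets 15 had a positive log2 fold change (median 0.22), and Sgk1, a kinase gene, was called higher in the fit of 9 libraries, with 92.2 to 118.3 CPM in HFD_STZ libraries against 50.3 to 71.1 CPM in HFD libraries. Tsc22d3, another such target, had 342, 691, 630.3, 713 and 443 CPM in HFD_STZ 1 to 5, against 271, 292, 356 and 330.1 CPM in HFD 1, 2, 4 and 5.

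Genes of lipid-associated macrophages had no common direction, with 6 of 14 positive (median -0.09, and 0.02 without ND 3). Spp1, which encodes osteopontin, had 1.83, 7.52, 1.05, 0.978 and 7.97 CPM in HFD_STZ 1 to 5, against 22.6, 19.7, 18.7 and 12.99 CPM in HFD 1, 2, 4 and 5, and Cd63, a tetraspanin of lysosomes and exosomes, had 46.3, 66.02, 23.6, 44.4 and 33.7 CPM in HFD_STZ 1 to 5, against 68.2, 93.6, 87.2 and 68.8 CPM in HFD 1, 2, 4 and 5 and was called lower in the fit of 9 libraries. Trem2, a lipid-sensing receptor, had 33.98 to 88.2 CPM against 28.02 to 54.3 CPM, with the groups overlapping. Cytosolic ribosomal protein genes had small negative log2 fold changes in 52 of 52 members (median -0.29, and -0.16 without ND 3), and the 7 mitochondrially encoded genes tested in 7 of 7 (median -0.38), with 0 called in either fit. The within-cohort medians of the ribosomal list were -0.12, -0.20, -0.09 and -0.22 in cohorts 1, 2, 4 and 5, all nearer to 0 than the fitted median. Mesothelial and fibroblast markers summed to at most 3.5 CPM in HFD_STZ libraries and 1.1 CPM in HFD libraries, and T and NK cell markers to at most 17.8 and 11 CPM.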
